A study of Homo sapiens and Mus musculus with 24 samples.

Results

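The mRNAs of 8 apolipoproteins (APOA1, APOA2, APOB, APOC1, APOC3, APOE, APOH and APOM) were examined in HepG2 cells, a human hepatocellular carcinoma line, with HEK293, a human embryonic kidney line, beside them. They are 8 of the 58381 human genes listed, and all 8 were among the 20117 genes tested in HepG2. The genes were chosen by their measured log2 fold changes upon UV irradiation and their shares of the counts in HepG2, so their HepG2 values are given as a description and without a test. The series compares RNA sequencing libraries from UV-irradiated and nonirradiated HepG2, HEK293, mouse Neuro2a neuroblastoma cells and cultured hippocampal neurons of embryonic mice (HippCulture), in 3 replicates for each of 8 groups, 24 samples in all. The labels give no genetic change and no treatment other than irradiation, and no time between irradiation and lysis. Per the study's methods, the hippocampal neurons for sequencing came from C57/BL6NCr embryos and were treated with AraC to remove glial cells before irradiation. Cells were irradiated on ice. All samples, irradiated or not, were extracted with TRIzol from lysates heated at 55 °C for 10 min, and the method rests on crosslinked RNA being lost from the aqueous phase that is sequenced. The study's culture methods name HEK293T where the labels say HEK293, and the study describes its sequencing replicates as biological, without giving in the labels which cultures they came from.

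Apolipoproteins are the protein part of lipoprotein particles, which carry cholesterol and triglycerides through the blood, and most of them are made by hepatocytes. APOB is the exception in its build, a very large protein that wraps around very-low-density and low-density particles and stays on a particle for its lifetime, whereas most of the other apolipoproteins are small and move between particles. UV light of short wavelength forms covalent bonds between RNA and proteins in direct contact with it, most readily at uridines. The values below are relative read counts of the RNA recovered, and what set them was not tested.

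The gene coordinates are those of hg38, and lengths are the union of annotated exons (Length column of the files). APOB (ENSG00000084674.14) lies on the minus strand of chromosome 2 from 21001429 to 21044073 and has 14828 exon bases, more than 97.2% of the mRNAs tested. The other 7 have 866 to 2191 exon bases. APOA1 (ENSG00000118137.9, chromosome 11, 116835751 to 116837950, minus strand, 1424 bases) and APOC3 (ENSG00000110245.11, 116829706 to 116833072, plus strand, 866 bases) are neighbours, as are APOE (ENSG00000130203.9, chromosome 19, 44905754 to 44909393, plus strand, 2191 bases) and APOC1 (ENSG00000130208.9, 44914247 to 44919349, plus strand, 1231 bases). APOA2 (ENSG00000158874.11) is on chromosome 1 (161222292 to 161223631, minus strand, 945 bases), APOH (ENSG00000091583.10) on chromosome 17 (66212033 to 66256525, minus strand, 1332 bases) and APOM (ENSG00000204444.10) on chromosome 6 (31652416 to 31658210, plus strand, 1660 bases). In the canonical transcripts of GENCODE 44, the coding sequence of APOB has 13692 bases, exceeded by only 36 of 13735 tested mRNAs, and its 3′ UTR 301. The 3′ UTRs of the other 7 have 57 to 188 bases, against a median of 1262 over all tested mRNAs.

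The base composition of these mRNAs spans a wide range. Uridine makes up 12.9% of the APOE transcript and 14.2% of APOA1, with 0.175% and 0.721% of mRNAs holding less, then 17.5% in APOC1, 20.5% in APOA2, 21.1% in APOC3, 23.3% in APOM, 25.5% in APOB and 27.2% in APOH, where the median mRNA has 24.8%. The 90-base stretch of each coding sequence with the most uridine is shown for both ends of this range, 5′ to 3′ as DNA with T in capitals, since these 4 mRNAs cover the lowest and the highest uridine content in the group.
APOB: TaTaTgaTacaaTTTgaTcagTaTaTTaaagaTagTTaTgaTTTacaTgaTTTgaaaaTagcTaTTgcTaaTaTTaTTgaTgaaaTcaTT
APOH: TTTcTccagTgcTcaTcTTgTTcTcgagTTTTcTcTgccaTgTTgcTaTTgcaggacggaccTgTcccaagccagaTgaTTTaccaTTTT
APOA1: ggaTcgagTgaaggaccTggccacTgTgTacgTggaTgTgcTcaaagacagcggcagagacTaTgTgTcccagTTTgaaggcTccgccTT
APOE: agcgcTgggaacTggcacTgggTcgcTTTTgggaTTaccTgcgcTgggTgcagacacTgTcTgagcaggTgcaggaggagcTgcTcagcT
The stretch of APOB starts at base 6529 of the coding sequence and holds 37 T (41.1%), and that of APOH starts at base 5 and holds 34 (37.8%). Those of APOA1, from base 96, and APOE, from base 125, hold 20 each (22.2%). Runs of 5 uridines (TTTTT, on the strand of the transcript, overlapping runs counted each) occur 20 times in the APOB transcript, 3 times in APOH and 1 time in APOM, and in none of the other 5.

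HepG2 carried hepatocyte transcripts at high level. CPM (counts scaled to the same library total) in nonirradiated cells were 13711 ± 2503 for ALB, 5706 ± 1039 for AFP, 3423 ± 203 for SERPINA1 and 273 ± 4.87 for HNF4A (SD, n = 3 each). ALB, AFP, TTR, FGB and SERPINA1 had at most 7 counts in any HEK293 sample and HNF4A at most 3. Of the HEK293 markers, NEFL had 423 CPM in nonirradiated HEK293 and no count in HepG2, while PAX2 and NEFM were near 1 CPM in HEK293. HepG2 samples held 36573473 to 53511592 counts and HEK293 samples 9444707 to 11188033. The deposited values are raw counts, and log2 fold changes were fitted with edgeR, whose TMM scaling sets the bulk of genes near no change. The median log2 fold change of all genes tested in HepG2 was −0.08 with TMM and −1.38 with library size alone, so the shares of counts below and the log2 fold changes differ by this shift.

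APOB alone took 2.74, 2.47 and 2.54% of all counts in the 3 nonirradiated HepG2 samples and 0.464, 0.444 and 0.461% in the irradiated ones. It was the gene with the third most counts in replicate 1 and the second in replicates 2 and 3 without irradiation, behind the mitochondrial rRNA MT-RNR2 in each. After irradiation it ranked 17, 20 and 20. The mean share was thus 5.67-fold lower after irradiation, 0.456% ± 0.011 against 2.58% ± 0.139 (SD, n = 3 each), and the groups were far apart.

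APOA1 and APOA2, the main proteins of high-density particles, had higher shares in all 3 irradiated samples than in any nonirradiated one. The share of APOA1 was 0.0961, 0.129 and 0.127% without irradiation and 0.272, 0.274 and 0.266% with it. That of APOA2 was 0.135, 0.178 and 0.176% against 0.315, 0.321 and 0.328%. The mean shares were 2.31-fold and 1.97-fold higher after irradiation.

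APOE, a ligand for the uptake of remnant particles, carried by several particle classes, had shares of 0.0639, 0.0917 and 0.0895% in nonirradiated and 0.157, 0.156 and 0.156% in irradiated samples. APOC1 and APOC3, small proteins that inhibit lipolysis and particle uptake, behaved alike in direction at a lower level. The share of APOC1 went from 0.0108, 0.0125 and 0.0135% to 0.0314, 0.0308 and 0.0305%, and that of APOC3 from 0.00719, 0.00822 and 0.00849% to 0.0171, 0.0168 and 0.0170%. The gap between groups was several times the spread within either for both genes, with mean shares 2.52-fold and 2.13-fold higher after irradiation.

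APOH (β2-glycoprotein I, a phospholipid-binding plasma protein) and APOM (a lipocalin that carries sphingosine-1-phosphate on high-density particles) showed the smallest differences among the short mRNAs. APOM had shares of 0.0197, 0.0272 and 0.0254% without and 0.0332, 0.0345 and 0.0339% with irradiation, 1.40-fold higher on average. For APOH the shares were 0.0976, 0.142 and 0.138% against 0.142, 0.146 and 0.153%, 1.17-fold higher on average. The highest nonirradiated sample (0.142268%) and the lowest irradiated one (0.142305%) of APOH nearly touched, closer than counting error can resolve. Averaged over the lower and the upper side, exact 95% binomial intervals extended at most 3.84% of the value for any of the 8 genes in HepG2. They cover counting error only.

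**Figure D1:**
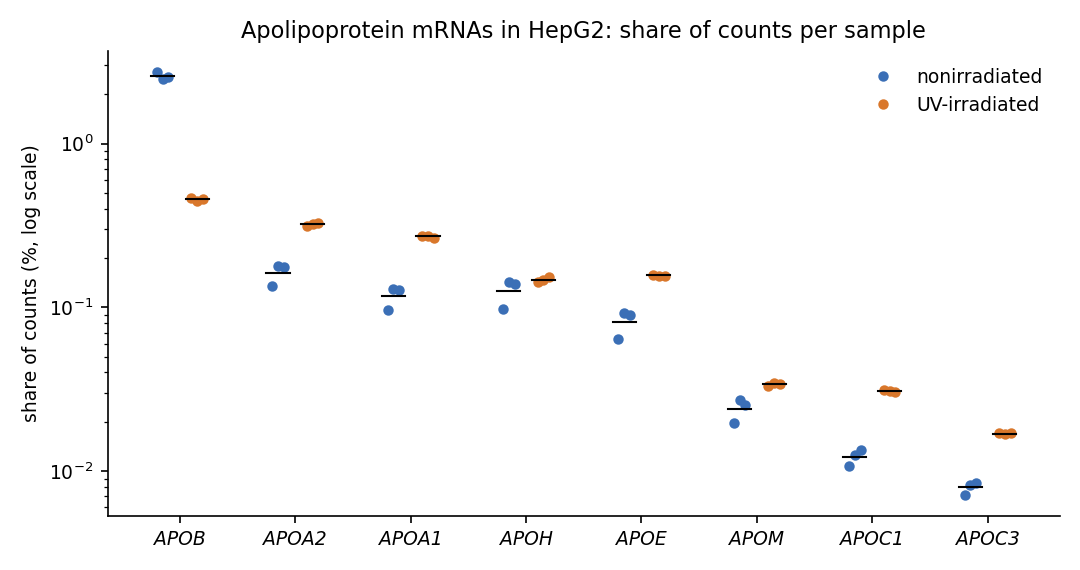
Share of all counts (%, log axis) of each of the 8 apolipoprotein mRNAs in the 3 nonirradiated (blue) and 3 UV-irradiated (orange) HepG2 samples, with the group mean as a bar. APOB is lower and the other 7 are higher in every irradiated sample, with APOH nearly touching between the groups.

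Replicate 1 of the nonirradiated cells had the lowest share of all 7 short mRNAs and the highest of APOB. That library also had the largest share of MT-RNR2 among nonirradiated samples, 7.91% against 6.30 and 6.53%. Whether the 2 observations are connected was not tested. Without this library the log2 fold changes of the 7 short mRNAs were lower than with all samples but still positive, from 1.32 for APOH to 2.50 for APOC1.

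On the TMM scale the log2 fold change upon irradiation was −1.20 ± 0.12 (SE, 3 against 3 samples) for APOB. Among the short mRNAs it was 2.64 ± 0.09 for APOC1, 2.52 ± 0.13 for APOA1, 2.40 ± 0.08 for APOC3, 2.29 ± 0.12 for APOA2, 2.25 ± 0.14 for APOE, 1.80 ± 0.11 for APOM and 1.53 ± 0.14 for APOH, with a median of 2.29. By edgeR's threshold of an adjusted p under 0.05, 7 of the 8 were increased and 1 decreased, in a comparison where 38.1% of all genes tested were increased and 40.7% decreased. Normalized CPM were higher in every irradiated sample for the same 7 genes and lower for APOB, as they were for 39.6% and 42.8% of all genes. Since these values chose the genes, nothing is read from the counts. With library size alone, the order of the 8 values stayed as it was, and they became −2.50 for APOB, 0.22 for APOH, 0.49 for APOM and 0.94 to 1.34 for the other 5. No value changed sign. APOH was thus high relative to the bulk of genes and nearly level relative to all counts.

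The ratio between APOB and the sum of the 7 short mRNAs needs no scaling between samples. In nonirradiated cells there were 6.367, 4.202 and 4.403 APOB counts per count of the short mRNAs, and in irradiated cells 0.479, 0.453 and 0.468. APOB accordingly made up 86.4, 80.8 and 81.5% of the counts of the 8 genes before and 32.4, 31.2 and 31.9% after irradiation. The mean log2 ratio went from 2.29 ± 0.33 to −1.10 ± 0.04 (SD, n = 3 each), a difference of −3.39. It was −3.40 with counts per kilobase of exon. Against APOA1 alone the difference was −3.72 and against APOE alone −3.46. The short mRNAs together took 0.430, 0.588 and 0.578% of counts without irradiation and 0.968, 0.979 and 0.985% with it. All 8 genes together held 3.12% ± 0.0553 and 1.43% ± 0.0115 (SD, n = 3 each), so their combined share was lower after irradiation although 7 of them had higher shares.

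**Figure D2:**
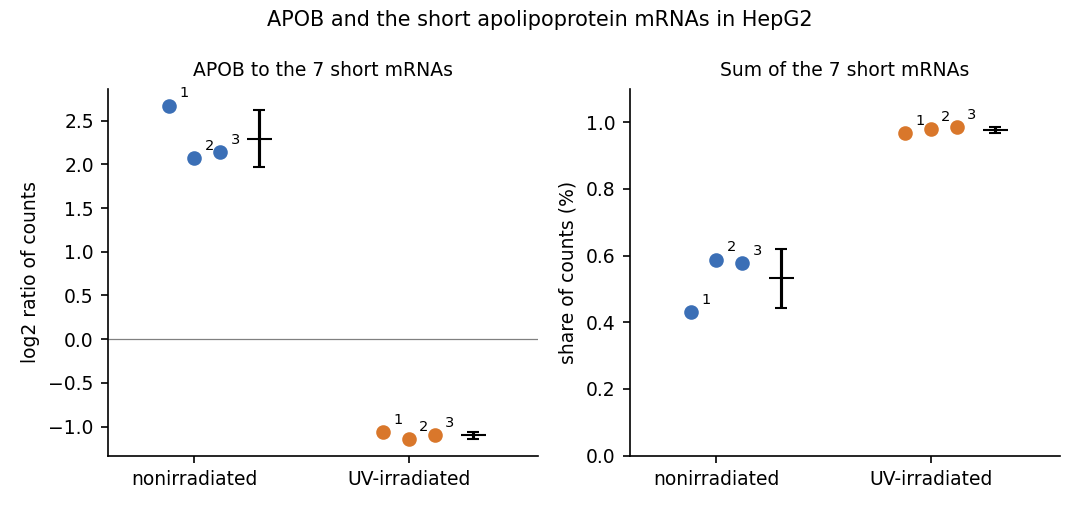
Left, log2 ratio of APOB counts to the summed counts of the 7 short apolipoprotein mRNAs in each HepG2 sample, and right, the summed share of counts (%) of those 7 mRNAs. Points are samples with their replicate number, and bars beside them are the mean ± SD (n = 3). The ratio lies above 2 in the nonirradiated samples and near −1.1 in the irradiated ones.

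Per length, the order of the levels changed with irradiation. In RPKM (CPM per kilobase of exon), APOB (1743 ± 93.5, SD, n = 3) and APOA2 (1723 ± 254) stood first in nonirradiated cells and overlapped. APOH (947 ± 186) and APOA1 (823 ± 129) followed and also overlapped, then APOE (373 ± 70.6), APOM (145 ± 23.5), and the overlapping APOC1 (99.4 ± 11.2) and APOC3 (92.0 ± 7.94). In irradiated cells the order was APOA2 (3398 ± 68.1), APOA1 (1902 ± 28.7), APOH (1106 ± 42.0), APOE (714 ± 3.34), APOB (308 ± 7.32), APOC1 (251 ± 3.79), APOM (204 ± 3.88) and APOC3 (196 ± 1.91), with no overlap between neighbours. The length used matters for such orders. Per kilobase of the canonical transcript, which for APOA2 has 474 bases instead of the 945 of all exons, APOA2 (3434 ± 507) stood above APOB (1831 ± 98.2) in nonirradiated cells without overlap, and APOB came seventh, level with APOC3, after irradiation.

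**Figure D3:**
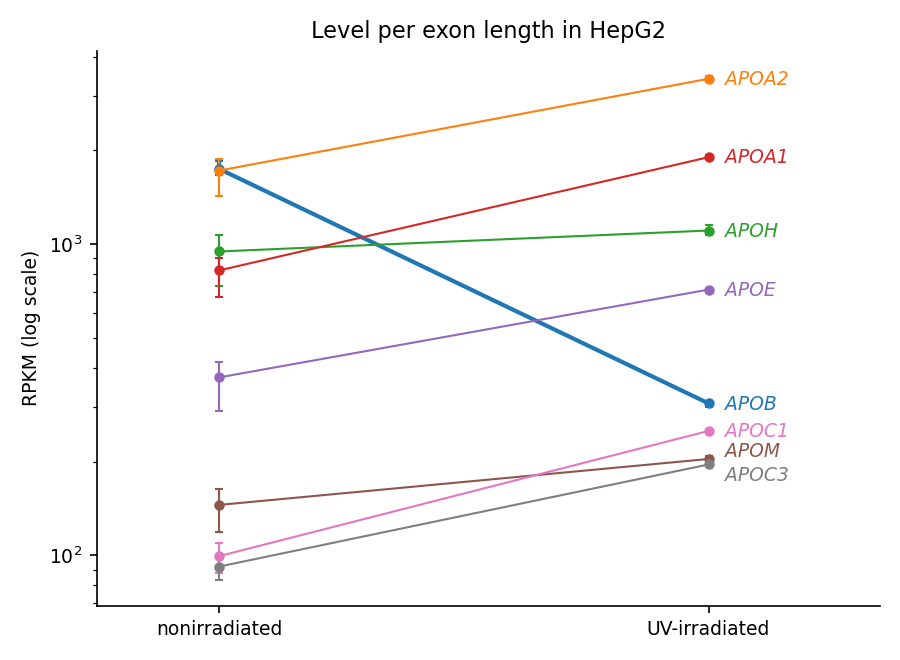
RPKM (log axis) of the 8 apolipoprotein mRNAs in nonirradiated and UV-irradiated HepG2 cells. Points are means of 3 samples and bars run from the lowest to the highest sample. The line of APOB falls from 1743 to 308 and crosses those of APOA2, APOH, APOA1 and APOE, while the other 7 lines go up.

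The position of these mRNAs was compared with all 13735 mRNAs tested in HepG2. Across mRNAs, which are not independent replicates and share the same 6 libraries, Spearman's ρ between the log2 fold change and exon length was −0.48, with the length of the canonical transcript −0.61, with the 3′ UTR −0.50, with the coding sequence −0.40 and with the percentage of uridine −0.40. The median log2 fold change was 1.59 for mRNAs with over 1000 and up to 1500 exon bases, 0.42 for those over 3000 and up to 5000, and −0.82 for the 848 above 12000. APOB at −1.20 was below the median of its length class, where 29.1% of mRNAs were lower still. APOC1 exceeded 98.4% and APOA1 96.1% of the mRNAs of over 1000 and up to 1500 exon bases, and APOE 97.1% of those over 2000 and up to 3000. APOH, at 46.1%, stood at the middle of its length class, and APOC3, APOA2 and APOM were above 84.5, 79.0 and 72.5% of theirs. In all, only 33 of the 13735 mRNAs had a higher log2 fold change than APOC1 and 98 a higher one than APOA1.

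**Figure D4:**
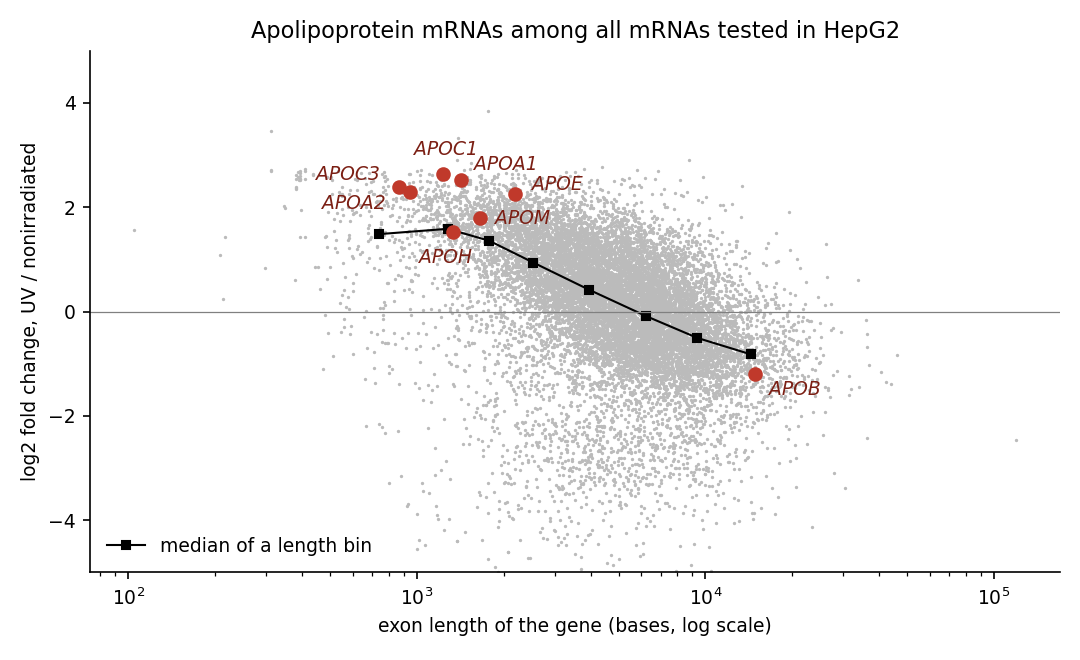
Log2 fold change upon UV irradiation in HepG2 against the exon length of the gene (bases, log axis) for the mRNAs tested (grey, 46 of them beyond the vertical axis), the medians of 8 length classes (black squares) and the 8 apolipoprotein mRNAs (red). The medians run from 1.49 to −0.82, 6 of the short apolipoprotein mRNAs lie above this line, and APOH and APOB lie below the median of their classes.

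Within the 8 genes, whose choice rests on these fold changes, Spearman's ρ of the log2 fold change was −0.81 with the coding length, −0.69 with the percentage of uridine, −0.60 with exon length, −0.36 with the 3′ UTR and 0.024 with the 5′ UTR (n = 8, no test). The 2 most uridine-rich transcripts, APOH and APOB, had the 2 lowest values. By exon bases APOH (1332) is close to APOA1 (1424). Its coding sequence (1038 bases) and canonical transcript (1174 bases) are the longest of the short mRNAs, against 804 and 899 in APOA1. Which of these features went with the order was not tested. APOB combines a long coding sequence with a short 3′ UTR. Among the 39 tested mRNAs with a coding sequence over 8000 bases and a 3′ UTR under 600, limits set after seeing the data, 32 had a negative log2 fold change and the median was −0.88. APOB was the 11th lowest of them. All 158 mRNAs with such long coding sequences had a median of −1.05.

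By the root mean square distance between log2 normalized counts, each gene centred on its own mean over the 6 HepG2 samples, the genes most like APOA1 among 20116 were RPL12, a ribosomal protein mRNA (0.00789), RPS10-NUDT3, a readthrough transcript of a ribosomal protein gene (0.0136), and ENSG00000251357 (0.0147). Their log2 fold changes were 2.51, 2.53 and 2.54, and they have 2452, 5231 and 788 exon bases. Those most like APOB were NCOA3 (0.0277), a nuclear receptor coactivator, CERS6 (0.0307), a ceramide synthase, and MAP1B (0.0310), a microtubule-associated protein, with log2 fold changes of −1.18, −1.17 and −1.23 and 7241 to 12630 exon bases. Since closeness over these 6 samples chose the genes, fold changes near those of APOA1 and APOB follow from the choice.

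Genes sharing exons limit how far some counts can be told apart, because a read on bases shared by genes was counted for each and the counting commands name no option for strand. APOC1 shares 532 exon bases (43.2% of its length) with ENSG00000280087 on the same strand, whose 1644 to 2664 counts in nonirradiated samples became 5101 to 6487 in irradiated ones. Of APOA1, 123 bases (8.64%) overlap the antisense gene APOA1-AS, of APOM 136 (8.19%) overlap BAG6 on the other strand, and of APOB 169 (1.14%) overlap ENSG00000280390. The pseudogene APOC1P1, a near copy of APOC1, had at most 273 counts in a HepG2 sample against at least 3935 for APOC1. APOA1-AS had a log2 fold change of 2.57 ± 0.13 (SE), next to that of APOA1, and ENSG00000280390 one of −1.004 ± 0.092, next to that of APOB. BAG6 had 0.83 ± 0.07, lower than APOM.

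Within each gene cluster, neighbours of the chosen genes were measured too. On chromosome 11, APOA4 (1.97 ± 0.15, SE, adjusted p = 2.7e-06 by edgeR's quasi-likelihood test, as for all adjusted p-values here) and APOA5 (1.86 ± 0.08, adjusted p = 2.6e-07), which regulate triglyceride metabolism, rose in HepG2 at 3.69 and 28.6 CPM in nonirradiated cells. On chromosome 19, APOC2, the activator of lipoprotein lipase, rose by 2.11 ± 0.09 (adjusted p = 2.8e-07), and APOC4 by 0.81 ± 0.25 (adjusted p = 0.015), although its mean CPM without TMM scaling was lower after irradiation (0.638 against 0.899).

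Of 16 further apolipoprotein and related genes, 12 were tested in HepG2, where 10 rose and 2 fell, with a median log2 fold change of 1.22 against −0.08 for all genes tested. The counts of this and the following lists stand beside 38.1% increased and 40.7% decreased among all genes. With library size alone 5 rose and 4 fell. SAA4, an apolipoprotein of the serum amyloid A family, rose the most, by 2.12 ± 0.12 (adjusted p = 7.1e-07). APOL4 (−2.58 ± 0.15, adjusted p = 8.4e-07) and APOL6 (−1.78 ± 0.12, adjusted p = 1.4e-06), members of the intracellular APOL family, fell. APOL6 is long, with 10121 exon bases, but APOL4 has 4377. APOD, LPA, SAA1 and SAA2 did not pass the filter.

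Of 11 tested genes that assemble and export APOB-containing particles, 6 rose, 2 fell and 3 did not pass, with a median of 0.59. MTTP, the transfer protein that loads lipid onto APOB, had 0.12 ± 0.09 (adjusted p = 0.25, named for its role outside the rule), while its partner subunit P4HB rose by 1.42 ± 0.08 (adjusted p = 7.6e-07) and DGAT1, a triglyceride-forming enzyme, by 1.47 ± 0.09 (adjusted p = 9.9e-07). SAR1B (−0.45 ± 0.07, adjusted p = 2.2e-04) and MIA3 (−0.34 ± 0.08, adjusted p = 0.0032), which act in the exit of large cargo from the endoplasmic reticulum, fell. With library size alone, none of the 11 rose (0) and 7 fell, and P4HB and DGAT1 were then at 0.11 and 0.17, not past the threshold. Without replicate 1 of the nonirradiated cells the values of MIA3 and SAR1B became −0.46 and −0.55.

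Among 13 tested receptors and their regulators, 6 rose, 4 fell and 3 did not pass, with a median of 0.04 (1 rose and 11 fell with library size alone). These shares are near those of all genes. LRPAP1, a chaperone of these receptors (1.76 ± 0.07, adjusted p = 2.6e-07), and LSR, a lipoprotein receptor (1.2004 ± 0.0654, adjusted p = 5.6e-07, but −0.10 with library size alone), rose. SORL1, a sorting receptor with 19449 exon bases (−0.84 ± 0.08, adjusted p = 1.7e-05), and the scavenger receptor CD36 (−0.82 ± 0.18, adjusted p = 0.0023) fell. CD36 has 10115 exon bases, LSR 2916 and LRPAP1, which rose, 8724, with 10446 bases in the canonical transcript of LRPAP1.

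Of 13 tested genes of particle remodelling and lipid efflux, 7 rose, 3 fell and 3 did not pass, with a median of 0.70 (2 rose and 7 fell with library size alone). ANGPTL8 (2.18 ± 0.12, adjusted p = 7.0e-07) and ANGPTL4 (1.72 ± 0.09, adjusted p = 4.9e-07), inhibitors of lipoprotein lipase or partners of such inhibitors, rose. ABCA1, the transporter that loads lipid onto APOA1, fell (−1.07 ± 0.07, adjusted p = 1.1e-06).

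The 28 other plasma proteins tested gave 26 that rose and 2 that fell, with a median of 1.19 (8 rose and 10 fell with library size alone). TTR (2.03 ± 0.16, adjusted p = 3.5e-06) and AMBP (2.00 ± 0.11, adjusted p = 7.1e-07), rose the most. TTR carries thyroid hormone and AMBP is the precursor of a heme-binding protein and a protease inhibitor. The 2 that fell were coagulation factor F5 (−0.53 ± 0.12, adjusted p = 0.0035) and fibronectin, FN1 (−0.51 ± 0.10, adjusted p = 0.0017), whose canonical transcripts have 9132 and 8390 bases. Across the 28 genes Spearman's ρ of the log2 fold change was −0.78 with transcript length, −0.62 with exon length and −0.29 with the percentage of uridine (no test, same libraries). TF (transferrin), named after its value was seen, departed from this order by its annotated lengths, 26199 exon bases and 20166 in its canonical transcript. It increased by 1.30 ± 0.12 (adjusted p = 1.1e-05). Which of its transcripts HepG2 expresses was not tested, and the mRNA counted may be shorter than annotated, so its place in the order is uncertain. The mean CPM of TF without TMM scaling was 4059 before and 4040 after irradiation.

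**Figure D5:**
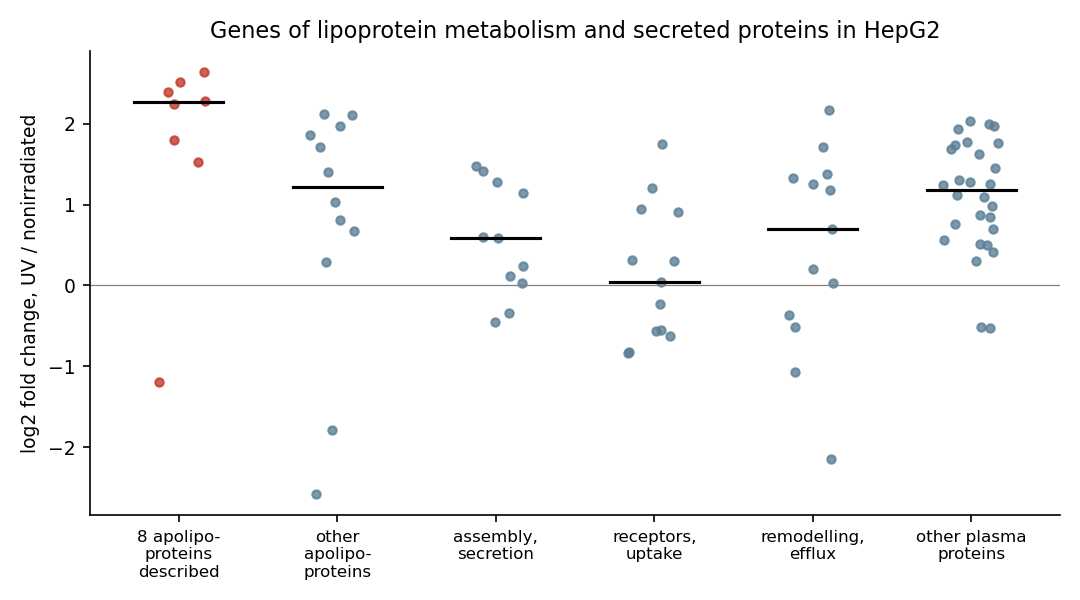
Log2 fold change upon UV irradiation in HepG2 for the 8 apolipoprotein mRNAs (red) and for the tested genes of 5 lists (blue-grey), one point a gene, with the median of each list as a bar. The medians are 1.22, 0.59, 0.04, 0.70 and 1.19 from left to right after the 8 genes, and the lone red point below 0 is APOB.

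In HEK293, 5 of the 8 genes were barely or not detected. APOC3 and APOH had 0 counts in all 6 samples, which allows up to 0.268 to 0.318 CPM per sample (3 counts of the total). APOA2 had at most 2, APOB at most 5 and APOA1 at most 7 counts in a sample, and none of these passed the filter. No change of APOB can thus be measured there. APOC1 had 33, 49 and 50 counts in nonirradiated and 123, 138 and 150 in irradiated HEK293 samples, with no overlap after scaling. It rose by 2.27 ± 0.19 on the log2 scale (SE, adjusted p = 4.4e-05), and only 2 of 14424 mRNAs tested in HEK293 had a higher value. APOE had 84, 152 and 142 counts against 174, 340 and 328, again without overlap, and rose by 1.76 ± 0.23 (adjusted p = 3.2e-04). In this line 24.2% of genes tested were increased and 26.4% decreased.

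APOM had 144, 91 and 97 counts in nonirradiated and 133, 115 and 95 in irradiated HEK293 samples, and the groups overlapped. Its log2 fold change was 0.70 ± 0.28 (adjusted p = 0.068), −0.079 with library size alone, 0.98 without replicate 1 of the nonirradiated samples (adjusted p = 0.015), 0.42 without replicate 1 of the irradiated ones (adjusted p = 0.19). Without replicate 3 of the irradiated samples it was 0.93 (adjusted p = 0.034). HEK293 samples with the same replicate number deviated together, and with the number as a block the value was 0.70 (adjusted p = 9.2e-06), past the threshold. APOE in replicate 1 was the lowest of its group with and without irradiation, and APOM in replicate 1 the highest.

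The differences between the log2 fold changes of HepG2 and HEK293 (HepG2 minus HEK293) were 0.28 ± 0.20 for APOC1, 0.39 ± 0.29 for APOE and 1.00 ± 0.31 for APOM (SE), and with library size alone −0.16 ± 0.20, −0.06 ± 0.31 and 0.57 ± 0.28. No test is given because the HepG2 values chose the genes. Such differences were past the threshold for 7.95% of the 16759 genes tested in both lines (1332 genes), and for 7 of 36 genes of the 5 lists. With the replicate number as a block they were past it for 3535 of all genes and 15 of the list genes. The lines also differ in sequencer model, depth and counting program version, which cannot be told apart from the cell line.

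In the mouse cells only Apoe was abundant enough to compare. Its counts in HippCulture were 3608, 3834 and 3711 without and 6141, 5713 and 8061 with irradiation, and it rose by 1.46 ± 0.10 on the log2 scale (adjusted p = 4.7e-10), in a comparison where 26.1% of genes were increased. In Neuro2a it had 71, 60 and 54 counts against 17, 13 and 11, and it fell by 0.85 ± 0.25 on the log2 scale (adjusted p = 0.0082), where 33.0% of genes were decreased. The groups did not overlap in either cell type. Apoh, at 4 to 23 counts, was not past the threshold in either (adjusted p = 0.74 in Neuro2a and 0.30 in HippCulture), and the other 6 orthologs, with at most 5 counts in any sample, were not tested.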

How the data were processed

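RNA from irradiated and nonirradiated cells was sequenced after rRNA removal. The authors mapped reads to hg38 or mm10 with TopHat2 2.1.1 and deposited raw counts per gene made with featureCounts (1.5.3 for HepG2, 1.6.1 for the other cells) on exons of GENCODE 28 or M17. The files also give each gene's exon length. The labels name a TruSeq Stranded mRNA kit and the study's methods TruSeq RNA v2. The sequencer, per the methods, was a HiSeq4000 for HepG2 and a HiSeq2500 for the remaining cells.

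The 8 genes, the gene lists and the tests were chosen with earlier results of these data known. Symbols came from GENCODE 44 and M21, matched by Ensembl ID for 98.93% of human and 99.82% of mouse genes. Canonical transcripts were those of GENCODE 44. With edgeR 4.0.16 in R 4.3.3, 1 model per cell type was fitted (quasi-likelihood test, TMM, Benjamini-Hochberg adjustment) over genes with a mean of at least 0.5 CPM in nonirradiated samples, and the lines were compared by an interaction term. A gene was called changed at an adjusted p under 0.05. The SE is the log2 fold change divided by the square root of F. Samples held 6910907 to 53511592 counts. Named genes are the 8, the 2 most positive and 2 most negative called and nonoverlapping genes of each list, the 3 genes nearest to APOA1 and to APOB, exon-sharing genes and cell type markers. In HEK293 same-numbered samples deviated together (correlations of 0.50, 0.23 and 0.31 across genes), so the replicate numbers may pair the samples. This rests on the numbers in the labels and on these correlations. The main fits, also those of HEK293 and of the interaction, nevertheless used no block, and the replicate block was run as an alternative. Code was tested on simulated counts. Alternatives were DESeq2 1.42.0 or its size factors, library size alone, other count filters, the replicate block and each sample left out. Python 3.11.15, scipy 1.17.1 and matplotlib 3.10.9 were used. Protein sequences were not used here. Some genes of the lists are not reported here.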

Additional observations from a re-analysis of the deposited data

Results flagged for a closer look

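Several results stood out because 2 groups responded differently to irradiation. In the interaction test of edgeR between HepG2 and HEK293, 7 genes of the lists differed, each with the higher value in HepG2. The difference in log2 fold change was 3.42 ± 0.56 (SE) for ANGPTL4, 3.12 ± 0.36 for VTN and 2.85 ± 0.56 for ANGPTL8 (adjusted p = 0.0023, 2.0e-04 and 0.0072). HEK293 held at most 8, 15 and 11 counts of these 3 genes in any sample. CIDEB (1.54 ± 0.33, adjusted p = 0.013) had 126 to 271 counts in nonirradiated and 46 to 78 in irradiated HEK293 samples. The others were LCAT (1.29 ± 0.31, adjusted p = 0.023), DGAT1 (0.68 ± 0.17, adjusted p = 0.024) and LRP8 (0.63 ± 0.17, adjusted p = 0.038). CIDEB kept its call under all 18 alternatives, while LCAT lost it under 4 of 18, DGAT1 under 5 of 18 and LRP8 under 11 of 18. ANGPTL4, VTN and ANGPTL8 kept theirs under the 17 alternatives run for them. The filter asking for a minimum count in every sample left these 3 genes out, so it could not test their calls. The main filter uses nonirradiated samples only. In HEK293 their mean CPM were 0.77, 1.33 and 0.84 without and 0.13, 0.28 and 0.29 with irradiation. Whether the main filter enlarged their differences was not tested.

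Apoe was higher in every irradiated HippCulture sample and lower in every irradiated Neuro2a sample. The log2 fold changes differed by 2.31 between these cells, a difference that was not tested. Its direction in each held with library size alone (0.89 in HippCulture and −2.04 in Neuro2a). Neuro2a had at most 71 counts in a sample and HippCulture at least 3608.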

How the results depend on the processing

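With library size alone, 15830 genes were decreased and 1734 increased in HepG2, 11168 and 1557 in HEK293, 12852 were decreased in Neuro2a and 1320 increased in HippCulture. The lists then had 5 increased and 4 decreased further apolipoproteins, 0 and 7 assembly genes, 1 and 11 receptor genes, 2 and 7 remodelling genes, and 8 and 10 plasma proteins. APOM in HEK293 (−0.079), Apoh in Neuro2a (−0.99) and LSR in HepG2 (−0.10) changed sign, as Apoh did (−0.0896 and −0.02, range up to 0.466) without replicate 3 of the irradiated or 2 of the nonirradiated Neuro2a samples. The filter of 10 counts in every sample, which leaves fewer genes to set the scale, gave 7 decreased receptor genes. APOM in HEK293 passed the threshold without a filter (0.68) and with the replicate block (0.70), and ranged from 0.42 to 0.98 with a sample left out. Genes differing between HepG2 and HEK293 numbered 3050 with library size alone, 2013 with DESeq2, 790 with 10 counts in every sample, 3535 with the replicate block and 750 to 1929 with a sample left out. The fewest were found without a replicate of the irradiated HepG2 samples (774, 750 and 788 for replicates 1 to 3) or replicate 2 of the irradiated HEK293 samples (813). Among list genes they numbered 4, 8, 3, 15 and 4 to 10. The change in the summed share of the 7 short mRNAs was 0.445 percentage points and became 0.935 once the 10 most counted genes were left out. These 10, which include APOB, held on average 19.6% of counts in nonirradiated and 38.7% in irradiated HepG2 samples. MT-RNR2 alone held 6.30 to 7.91% without and 16.3 to 16.9% with irradiation, so all other shares are relative to this. In HepG2, where same-numbered samples did not clearly deviate together (correlations of 0.05, 0.04 and −0.01), the replicate block gave 8157 decreased and 7574 increased genes. With the block, no other named call changed. The difference in the log2 ratio of APOB to the short mRNAs lay between −3.50 and −3.20 with a sample left out. In HEK293, depth limits what can be said of the 5 genes near 0 counts.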
